A study of Mus musculus with 12 samples.

Results

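The 10 genes followed here encode transcription factors of the neural plate and spinal cord: Sox1, Sox2, Sox3, Sox21, Pax6, Irx3, Irx5, Foxd4, Lmx1a and Nr2f1. They were matched by gene symbol to their Ensembl identifiers and are 10 of the 55141 genes in the deposited count table. Their choice was not blind to the data: they were selected on measured values, with Lmx1a and Foxd4 known to be among the larger differences in favour of early embedding and Nr2f1 among the larger ones in the other direction. For this reason their values between embedding times are given as a description, without a p-value. The comparisons between gel concentrations were tested, as was whether the effect of embedding time differs between gels. Which values entered the choice is not fully known, so these p-values may not be independent of it.

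The study asked how embedding in soft hydrogels affects gastruloids, small aggregates grown from mouse embryonic stem cells that break symmetry and lay down an axis with derivatives of the germ layers. Gastruloids of the 129/SVEV background were seeded at 300 cells, exposed from 48 h to a 24 h pulse of 3 µM CHIR 99021, a Wnt pathway agonist, and collected at 120 h. They entered a dextran-based hydrogel early (72 h) or late (96 h), and the gel was either the 1.0 mM or the denser 1.5 mM formulation. Each of these 4 groups holds 3 libraries. All 12 libraries share the CHIR pulse, the embedding and the enzymatic release from the gel, so no library analysed here is an unembedded control. Early-embedded gastruloids also spent longer inside the gel. Each replicate pooled about 30 whole gastruloids, so fewer cells of a type and less RNA per cell cannot be told apart in any result below. The study describes its replicates as biological.

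In the embryo, the neural plate is marked by SoxB1 factors (Sox1, Sox2 and Sox3), which keep neural progenitors undifferentiated, and Sox21 is a SoxB2 factor that counteracts them. The neural tube is then divided along its dorsoventral axis. Lmx1a is a LIM homeodomain factor of the roof plate, Pax6 is a paired box factor of intermediate progenitors, and Irx3 and Irx5 are Iroquois homeodomain factors of the intermediate and ventral cord. Foxd4 is a forkhead factor of the early neural ectoderm, and Nr2f1 (COUP-TF1) is an orphan nuclear receptor of neural and mesodermal tissue. Several of these genes are not restricted to neural tissue: Sox2 is also a pluripotency factor, Irx3 and Irx5 are expressed in heart and mesoderm, and Lmx1a is expressed in the ventral midbrain and inner ear.

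Library totals ran from 23011791 to 27609422 counts. They were lower after embedding at 72 h, where the highest total was 25149780, than after embedding at 96 h, where the lowest was 25398824. A single transcript, CT010467.1, took 6.12% of the counts in replicate 1 of 72 h in 1.5 mM gels and 4.21% in replicate 2 of 96 h in 1.5 mM gels, whereas the largest share of any gene in the other 10 libraries was 2.67%. Log2 fold changes of the members that rest on those 2 libraries are also given without them, singly or as a range over libraries left out. The values of the Sox genes between gels are the exception. All 10 genes passed the low-count filter in every comparison. Their depth ranged from 39 to 135 counts for Sox1 and 35 to 347 for Lmx1a up to 1200 to 2702 for Irx3.

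The neural label was checked against lists of other neural genes, in CPM (counts relative to library size, scaled by TMM, the trimmed mean of M-values). Each list held detected genes and genes that stayed near 0. Of 16 neural plate and pan-neural progenitor genes, 4 never reached 1 CPM in any library, and the list summed to 1266 to 1668 CPM. Of 15 proneural and early neuron genes, 7 never reached 1 CPM in any library, among them Neurog1 and Neurog2, which start neurogenesis. Group means of Isl1 and Lhx1, of the same list, ran from 20.1 to 54.8 CPM and from 14.7 to 47.0 CPM. Of 13 dorsal spinal cord and roof plate genes, 8 never reached 1 CPM, including Gdf7, Wnt1, Wnt3a, Atoh1 and Olig3, whereas Bmp6, Msx1, Msx2 and Pax3 of the same list were detected and tested. Of 12 intermediate and ventral cord genes, 6 stayed under 1 CPM, among them Dbx1 and Dbx2. Shh, of the same list, had group means of 17.1 to 55.0 CPM. Sox1, an early marker of neural fate, was present at 1.74 to 5.26 CPM. The 10 genes are described one by one, and their sum is not read as an amount of neural tissue.

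Foxd4 and Lmx1a were the members with the largest differences in favour of early embedding, in both gels. Foxd4 (chromosome 19, 24899236 to 24901197, minus strand, a single exon; all coordinates are those of mm10) had 19.4, 20.6 and 15.2 CPM in the 3 early-embedded libraries of the 1.0 mM gel, and 5.90, 5.38 and 4.74 CPM in the late-embedded ones. For the 1.5 mM gel these were 15.5, 18.6 and 14.1 CPM (early) and 5.32, 4.94 and 3.58 CPM (late). Within each gel, every early library was above every late one. The fitted log2 fold change, 72 h over 96 h, was 1.79 (SE 0.157) in 1.0 mM gels and 1.79 (SE 0.174) in 1.5 mM gels, or 3.46-fold and 3.46-fold.

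Lmx1a (chromosome 1, 167689237 to 167848741, plus strand) showed the same order. In the 1.0 mM gel its early libraries had 10.5, 14.2 and 12.2 CPM, against 3.83, 3.45 and 1.88 CPM in the late ones. In the 1.5 mM gel the values were 8.66, 10.2 and 8.76 CPM against 2.06, 1.40 and 2.65 CPM. Early and late libraries were separate in both gels, and the log2 fold changes were 2.02 (SE 0.239) and 2.16 (SE 0.217), or 4.05-fold and 4.48-fold. In the 1.5 mM gel, leaving out any single library, the 2 with a high share of CT010467.1 included, kept Foxd4 between 1.64 and 1.91 and Lmx1a between 1.96 and 2.39.

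Pax6 (chromosome 2, 105668900 to 105697364, plus strand) was higher after early embedding in 1.0 mM gels, with 17.8, 10.3 and 14.9 CPM in early libraries and 7.55, 5.62 and 5.11 CPM in late ones. In the 1.5 mM gel the same groups had 14.8, 9.22 and 10.99 CPM and 9.79, 9.11 and 7.48 CPM. The embedding times were separate in 1.0 mM gels and overlapped in 1.5 mM gels. The log2 fold change was 1.24 (SE 0.215) in 1.0 mM gels, or 2.36-fold, and 0.40 (SE 0.186) in 1.5 mM gels, where it was 0.19 without replicate 1 of 72 h and 0.43 without replicate 2 of 96 h. Whether these values differ between gels was tested as an interaction, given below.

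The start regions of these 3 genes are shown for reference, because they are the members that were called higher after early embedding in at least 1 gel. Sequences are RefSeq promoter windows of GRCm38.p6 (250 bases upstream of the RefSeq start), cut where a GENCODE exon begins so that no annotated exon sequence is included. RefSeq windows were matched for 8 of the 10 genes, and 4 of these (Sox2 with the 3 shown) held at least 60 bases outside exons.
Lmx1a, 249 bases, chr1:167689308-167689556, plus strand, inside an intron of the longer annotated transcript: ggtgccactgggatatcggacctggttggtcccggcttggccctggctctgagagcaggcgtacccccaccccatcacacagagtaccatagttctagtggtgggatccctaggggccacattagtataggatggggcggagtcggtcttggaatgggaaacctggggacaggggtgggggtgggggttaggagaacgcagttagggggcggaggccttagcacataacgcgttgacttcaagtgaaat
Pax6, 250 bases, chr2:105668646-105668895, plus strand, inside the antisense gene model Pax6os1 but outside its exons: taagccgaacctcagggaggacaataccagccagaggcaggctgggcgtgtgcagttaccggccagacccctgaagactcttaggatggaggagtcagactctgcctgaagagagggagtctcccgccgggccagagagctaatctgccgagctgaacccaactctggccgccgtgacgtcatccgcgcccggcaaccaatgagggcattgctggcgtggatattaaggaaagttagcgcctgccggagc
Foxd4, 69 bases, chr19:24901198-24901266, minus strand, directly upstream of the GENCODE start: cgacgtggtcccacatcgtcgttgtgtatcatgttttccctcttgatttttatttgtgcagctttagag
Both strands were searched for 4 motifs: CTTTGA (TCF/LEF core), ACAATG (SOX core), AGGTCA (nuclear receptor half-site) and TGTTTAC (forkhead core). None of the 4 occurred in these windows, so no base is printed in capitals. By comparison, CTTTGA occurred in 13.8%, ACAATG in 10.7%, AGGTCA in 14% and TGTTTAC in 3.17% of the 32851 RefSeq windows at 250 bases. At the 69 bases of the Foxd4 window these shares were 4.3%, 2.93%, 3.94% and 0.895%. In the window of Sox2, AGGTCA occurred once, on the reverse strand. These are matches of letters only.

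Irx3 and Irx5 lie on chromosome 8 on opposite strands (Irx3 91798525 to 91802067, minus; Irx5 92357625 to 92376286, plus), 556 kb apart, and both were higher after early embedding by smaller folds. In the 1.0 mM gel, Irx3 had 80.2, 79.4 and 89.7 CPM in early and 54.6, 48.2 and 53.7 CPM in late libraries, and in the 1.5 mM gel 82.6, 106 and 109.6 CPM and 73.7, 74.5 and 51.2 CPM. For Irx5 the values were 39.7, 50.1 and 46.9 CPM (early) and 30.5, 26.7 and 35.1 CPM (late) in the 1.0 mM gel, and 51.3, 69.3 and 71.4 CPM and 44.4, 44.0 and 36.9 CPM in the 1.5 mM gel. Early and late libraries were separate for both genes and both gels. The log2 fold changes were 0.68 (SE 0.0860) and 0.57 (SE 0.150) for Irx3 and 0.57 (SE 0.123) and 0.61 (SE 0.125) for Irx5, that is 1.49-fold to 1.60-fold, under the 2-fold threshold of a call. Without replicate 1 of 72 h in the 1.5 mM gel they were 0.69 for Irx3 and 0.74 for Irx5, and without replicate 2 of 96 h 0.67 and 0.65. The antisense gene Irx3os shares 124 exonic bases with Irx3 and had 55 to 94 counts per library.

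Nr2f1 (chromosome 13, 78188973 to 78199757, minus strand) went the other way and had the largest difference of the 10. In the 1.0 mM gel it had 7.25, 6.17 and 15.5 CPM in early libraries and 54.2, 54.3 and 58.8 CPM in late ones. The values for the 1.5 mM gel were 13.1, 7.39 and 10.4 CPM (early) and 63.7, 47.2 and 73.4 CPM (late). The lowest library at 96 h was above the highest at 72 h in both gels, and replicate 3 of 72 h in 1.0 mM gels was the highest of the early libraries. The log2 fold change was -2.53 (SE 0.264) in the 1.0 mM gel and -2.58 (SE 0.211) in the 1.5 mM gel, where it stayed between -2.79 and -2.39 when any single library was left out. The antisense gene A830082K12Rik shares 123 exonic bases with Nr2f1 and had 28 to 162 counts, against 151 to 1885 for Nr2f1.

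**Figure D1:**
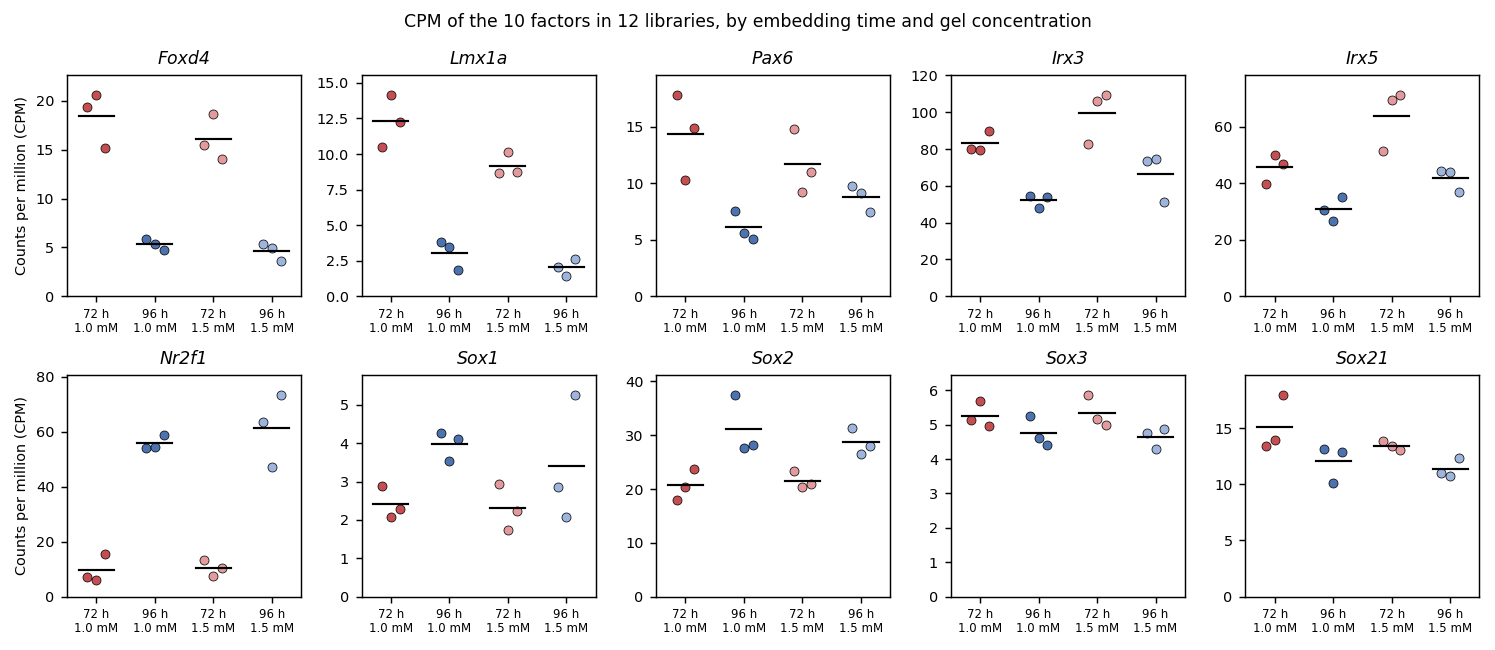
CPM (TMM-scaled) of the 10 factors in each of the 12 libraries (points, 3 per group) with the group mean (bar), by embedding time and gel concentration. Foxd4 and Lmx1a sit higher at 72 h in both gels, Nr2f1 sits higher at 96 h, and Sox3 stays between 4.29 and 5.86 CPM throughout.

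The SoxB genes did not move together. Sox2 (chromosome 3, 34650405 to 34652461, plus strand) was lower after early embedding, with 17.97, 20.3 and 23.7 CPM in early and 37.5, 27.5 and 28.2 CPM in late libraries of the 1.0 mM gel. In the 1.5 mM gel it had 23.4, 20.3 and 21.0 CPM and 31.3, 26.6 and 28.1 CPM. Early and late libraries were separate in both gels, and the log2 fold changes were -0.58 (SE 0.145) and -0.42 (SE 0.0955), the second between -0.48 and -0.35 when single libraries were left out.

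Sox1 (chromosome 8, 12395295 to 12400126, plus strand) had 2.88, 2.08 and 2.29 CPM in early and 4.25, 3.53 and 4.12 CPM in late libraries of the 1.0 mM gel, without overlap. In the 1.5 mM gel it had 2.93, 1.74 and 2.23 CPM and 2.85, 2.09 and 5.26 CPM, and there a single library at 96 h, replicate 3, lay above the others. The log2 fold changes were -0.71 (SE 0.208) and -0.57 (SE 0.345), and the second was -0.11 without that library and between -0.82 and -0.11 over all libraries left out singly.

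Sox3 (X chromosome, 60891366 to 60893430, minus strand) and Sox21 (chromosome 14, 118233232 to 118237030, minus strand) varied least. Sox3 had log2 fold changes of 0.15 (SE 0.168) and 0.20 (SE 0.151), and its embedding times overlapped in 1.0 mM gels. Sox21 ranged from 10.1 to 17.9 CPM, with log2 fold changes of 0.33 (SE 0.153) and 0.24 (SE 0.108). In CPM it was higher at 72 h without overlap in both gels. The gap in 1.0 mM gels was narrow, with 13.4 CPM in the lowest early and 13.1 CPM in the highest late library. In the authors' length-scaled values (FPKM, described below) these groups overlapped, at 2.79 and 2.95. In the 1.5 mM gel, leaving out single libraries gave 0.12 to 0.25 for Sox3 and 0.20 to 0.30 for Sox21. The lincRNA Gm4675 on the other strand shares 713 bases with Sox21, 18.8% of the exonic bases of Sox21, and had 18 to 46 counts per library against 252 to 431 for Sox21. The strand setting of the counts is not given in the sources used here, so reads in these overlaps, and in those of Irx3 and Nr2f1, could not be assigned to one gene with certainty.

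A gene was called when its edgeR quasi-likelihood test gave a Benjamini-Hochberg adjusted p below 0.05 with an absolute log2 fold change above 1. In 1.0 mM gels, 3 of the 10 members were called higher at 72 h (Foxd4, Lmx1a and Pax6), where 2.61% of all 15763 genes tested were, and 1 was called lower (Nr2f1), where 1.69% were. In 1.5 mM gels 2 were called higher (Foxd4 and Lmx1a), against 1.61% of 15683 genes, and 1 lower (Nr2f1), against 1.57%. Since members were chosen with these differences in view, the counts are not set against those shares. The median log2 fold change of the 10 members was 0.45 in 1.0 mM gels and 0.32 in 1.5 mM gels, and that of all genes -0.0054 and -0.0052. In CPM, the embedding times did not overlap for 9 members in 1.0 mM gels (all but Sox3), where 28.4% of all genes did not overlap. They did not overlap for 8 members in 1.5 mM gels (all but Pax6 and Sox1), where 39.9% of all genes did not.

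**Figure D2:**
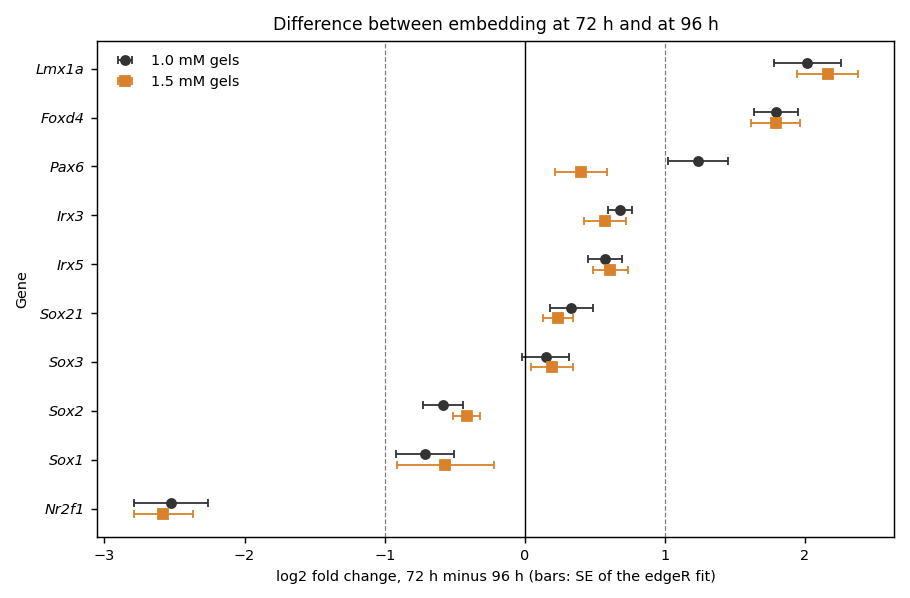
log2 fold change between embedding at 72 h and at 96 h for each factor (points, 3 libraries per group; bars, SE of the edgeR fit) in both gels (1.0 mM, 1.5 mM), with dashed lines at the threshold of 1. Values of both gels lie side by side for 9 genes, and Pax6 is at 1.24 in 1.0 mM gels and 0.40 in 1.5 mM gels.

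The gel comparisons asked whether the members differ between 1.5 mM and 1.0 mM gels within an embedding time. No member was called at 72 h or at 96 h, and no gene of the whole table was (0% of 15563 and 0% of 15861 genes tested with edgeR). At an unadjusted p below 0.05 there were 3 members at 72 h (Irx5, Lmx1a and Irx3) and 3 at 96 h (Irx5, Pax6 and Irx3), and neither DESeq2 nor limma-voom called any at the 2-fold threshold. Over all genes, 1074 and 1578 had an unadjusted p below 0.05, and DESeq2 called 2 and 10 genes, none of them a member.

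Irx5 was the only member whose gels were separate at both embedding times. Over all genes, the gels did not overlap for 11.1% at 72 h and 15.5% at 96 h. At 72 h it had 51.3, 69.3 and 71.4 CPM in 1.5 mM gels against 39.7, 50.1 and 46.9 CPM in 1.0 mM gels, and at 96 h 44.4, 44.0 and 36.9 against 30.5, 26.7 and 35.1 CPM. The log2 fold change, 1.5 mM over 1.0 mM, was 0.49 (SE 0.136) at 72 h (edgeR adjusted p = 0.698) and 0.44 (SE 0.107) at 96 h (adjusted p = 0.220). With both embedding times in one fit of 12 libraries it was 0.46 (SE 0.0954), with an interval of ±2 SE from 0.27 to 0.66 and an adjusted p of 0.117. Irx3 had 0.30 (SE 0.0938) in that fit (adjusted p = 0.218). Without replicate 1 of 72 h in the 1.5 mM gel, a library with a high share of CT010467.1, these were 0.53 for Irx5 (edgeR adjusted p = 0.00957) and 0.36 for Irx3 (edgeR adjusted p = 0.0392), and without the other, replicate 2 of 96 h, 0.44 (edgeR adjusted p = 0.284) and 0.26 (edgeR adjusted p = 0.447).

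The adjusted p of these genes thus depended on the processing, while their log2 fold changes stayed under the threshold of 1 in every setting, so they were not called where the adjusted p passed 0.05. For Irx5 over both embedding times it was 0.00150 with DESeq2, 0.0288 with the replicate number as a block in edgeR and 3.8e-08 in edgeR with no low-count filter. At 96 h it was 0.0229, 0.0252 and 0.000499 with the same settings, and at 72 h 0.00129 with no filter. For Irx3 no filter gave an edgeR adjusted p of 0.000595 over both embedding times and 0.00351 at 96 h, where leaving out replicate 3 of the 1.5 mM gel gave 0.0366. In the main fit over both embedding times 1 gene of 16388 was called (0.0061%), and it was no member. With no filter that fit held 31406 genes, with genes near 0 counts among them, and 45 were called. The lowest adjusted p of Irx5 and of Irx3 came from that setting, so it is not read as evidence of a difference.

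Lmx1a was lower in the denser gel, with a log2 fold change of -0.42 (SE 0.154) at 72 h, where the gels did not overlap (adjusted p = 0.698), and -0.58 (SE 0.298) at 96 h, where they did (adjusted p = 0.561). Over both embedding times its value was -0.50 (SE 0.173), with an interval from -0.84 to -0.15 (adjusted p = 0.261, and 0.0201 in edgeR with no low-count filter). Leaving out single libraries moved it between -0.63 and -0.40. Pax6 differed in sign between embedding times, at -0.30 (SE 0.224) at 72 h (adjusted p = 0.775) and 0.53 (SE 0.171) at 96 h (adjusted p = 0.347), with overlapping gels at both. For Foxd4 the values were -0.20 (SE 0.153) and -0.21 (SE 0.182), and for Nr2f1 0.10 (SE 0.328) and 0.14 (SE 0.125). Without replicate 1 of 72 h in the 1.5 mM gel, the values at 72 h were 0.62 for Irx5, -0.39 for Lmx1a, -0.51 for Pax6, -0.18 for Foxd4 and -0.12 for Nr2f1. Without replicate 2 of 96 h, those at 96 h were 0.40, -0.37, 0.50, -0.26 and 0.30. The 4 Sox genes lay between -0.22 and 0.06. The sign of Sox1, Sox2, Sox3 and Nr2f1 changed when single libraries were left out. These values missed the threshold, which does not show that the gels are alike: over both embedding times the ±2 SE interval of Nr2f1 ran from -0.26 to 0.50.

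The interaction, the effect of embedding time in 1.5 mM gels minus that in 1.0 mM gels, was called for no member and for no gene (0% of 16388 genes tested with edgeR, 708 at an unadjusted p below 0.05; DESeq2 and limma-voom also called none). Among the members only Pax6 had an unadjusted p below 0.05: its interaction was -0.83 (SE 0.309), with a ±2 SE interval from -1.44 to -0.21 and an adjusted p of 0.953 in the edgeR fit. Leaving out single libraries moved it between -1.05 and -0.64, with edgeR adjusted p from 0.245 up. With no low-count filter the value was -0.84 and the edgeR adjusted p 0.0285. That setting kept genes near 0 counts and called 112 of 31406 genes, so its adjusted p is not read as evidence of an interaction. In both cases the size for Pax6 is under the fold threshold of a call. For Foxd4, Lmx1a and Nr2f1 the interaction was 0.01 (SE 0.236), 0.16 (SE 0.344) and -0.04 (SE 0.379), and the last interval, -0.80 to 0.72, leaves room for a sizeable difference in either direction.

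**Figure D3:**
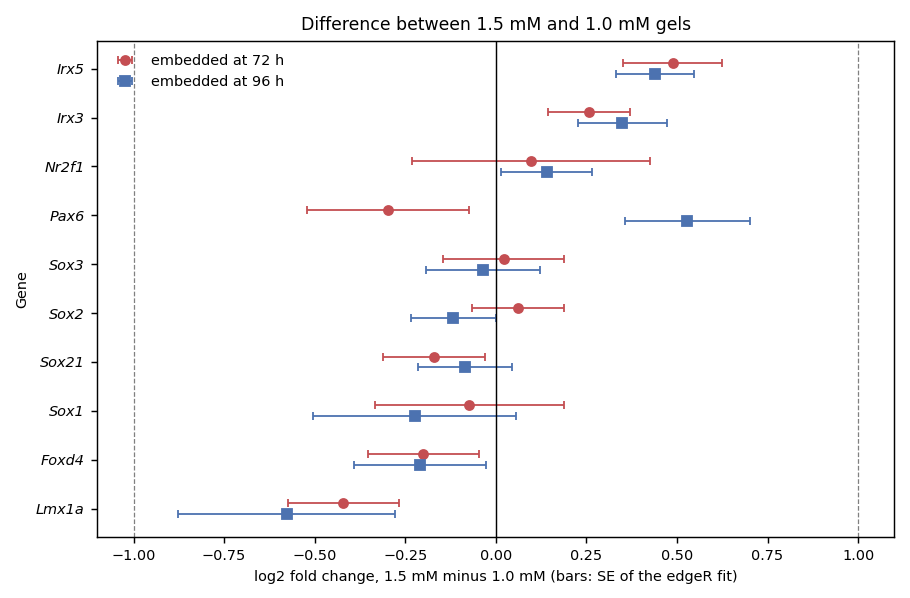
log2 fold change between 1.5 mM and 1.0 mM gels for each factor (points, 3 libraries per group; bars, SE of the edgeR fit) after embedding at 72 h or 96 h, with dashed lines at the threshold of 1. Irx5 and Irx3 lie above 0 and Lmx1a below 0 at both times, Pax6 changes side, and no gene passes the threshold.

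Levels between genes were compared in FPKM (fragments per kilobase of transcript at a fixed library size, computed by the authors with Cufflinks), which accounts for transcript length. Irx3 had the highest group mean in every group, from 15.5 ± 1.14 FPKM (SD, n = 3) in late libraries of the 1.0 mM gel to 28.4 ± 5.34 FPKM in early libraries of the 1.5 mM gel. With early embedding in the 1.0 mM gel the order was Irx3, Irx5, Sox2 and Foxd4, none overlapping with its neighbour. Pax6 (3.96 ± 1.18 FPKM), Sox21, Lmx1a, Nr2f1 and Sox3 followed with overlapping neighbours, and Sox1 came last at 0.397 ± 0.0803. With late embedding in the same gel Nr2f1 stood second at 13.9 ± 0.340 FPKM, and the ranges of Irx3, Nr2f1, Sox2 and Irx5 overlapped from each to the next. Lmx1a and Sox1 then shared the lowest place, at 0.745 ± 0.259 and 0.680 ± 0.0980 FPKM.

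In 1.5 mM gels the order began with Irx3, Irx5 (19.7 ± 4.23 FPKM), Sox2 and Foxd4 at 72 h, of which only Irx3 and Irx5 overlapped with each other. At 96 h it began with Irx3, Nr2f1 (15.1 ± 3.99), Irx5 and Sox2, where Irx3 overlapped with Nr2f1 and Nr2f1 with Irx5, and ended with Sox1 and Lmx1a at 0.561 ± 0.296 and 0.483 ± 0.168 FPKM, which overlapped. Foxd4 moved from rank 4 at 72 h to rank 8 at 96 h in both gels. The ratio of Irx3 to Irx5, in CPM within each library, stayed between 1.39 and 2.02.

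**Figure D4:**
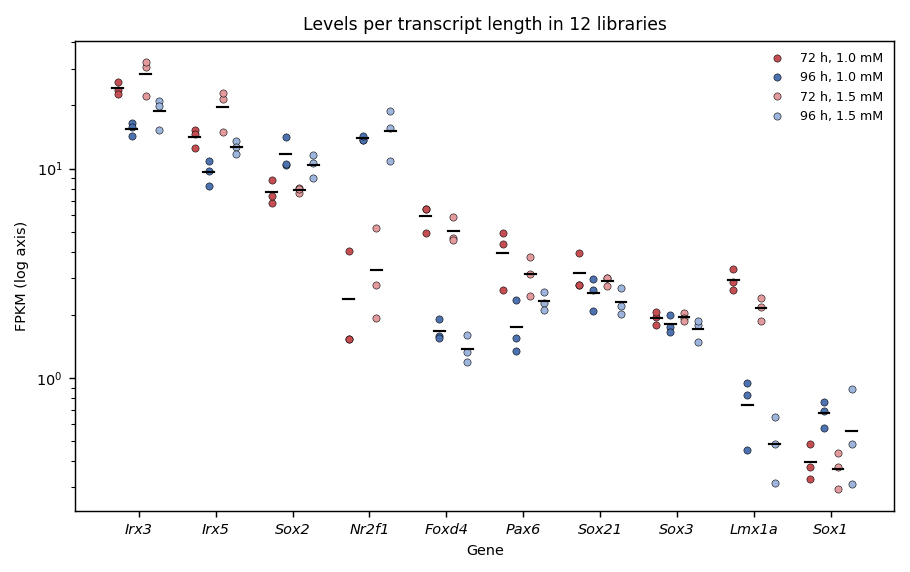
FPKM on a log axis for the 10 factors, ordered by their mean, with 1 point per library and a bar at the mean of each group of 3. Irx3 has the highest mean in every group, and the mean of Foxd4 lies above that of Nr2f1 at 72 h and below it at 96 h in both gels.

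Over the 12 libraries the log2 CPM values of some members followed each other closely. Correlations are given as descriptions, since the points share the 4 groups and the values of a library share its depth. Irx3 and Irx5 had r = 0.93, and r = 0.76 after the group means were removed. They did not move together in every group: at 72 h in 1.0 mM gels, the lowest library for Irx3 was the highest for Irx5. Foxd4 and Lmx1a had r = 0.94 but 0.07 within groups. Foxd4 and Nr2f1 had r = -0.98 and -0.73 within groups. Sox1 and Irx3 had r = -0.86 and -0.77 within groups, but not in every group: at 96 h in 1.0 mM gels the 3 libraries had the same order for both genes. Sox2 followed Nr2f1 (r = 0.89, within groups 0.53).

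The genes with the most similar pattern were sought among 11335 genes that averaged 100 counts or more, by Pearson's r of log2 CPM over the 12 libraries, and the 3 best are given for each member except Sox1, which was under that level. Group means were not removed, so genes that differ between embedding times can rank high for members that also differ. Nearest to Foxd4 were Tmem163 (r = 0.986), Bmp7 (r = 0.985) and Ephb1 (r = 0.980); Bmp7 is a BMP ligand and Ephb1 a receptor of ephrins. Nearest to Lmx1a were Tmod2 (r = 0.979), T (r = 0.976) and Adgrb2 (r = 0.975); T is Brachyury, the factor of notochord and posterior mesoderm. Nearest to Nr2f1 were Gap43 (r = 0.986), Cldn5 (r = 0.983) and Cd93 (r = 0.977). Gap43 is a growth cone protein and Cldn5 and Cd93 are endothelial genes. None of 6 other endothelial markers was called between embedding times in either gel.

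Irx3 and Irx5 shared their nearest gene, Fhdc1 (r = 0.982 and 0.953), followed by Pxylp1 and Ccdc28b for Irx3 and by Adam17 and Septin7 for Irx5. Nearest to Pax6 were Ypel2, Ptpre and Tanc2 (r = 0.966 for the third). The best matches of Sox2 (D030007L05Rik, Ebf3 and Efemp1), Sox3 (Mtmr11, Anxa4 and Tmx1) and Sox21 (Shroom2, Ppp3cb and Epn2) reached r of 0.906, 0.907 and 0.923.

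Relatives of the 10 members, 16 genes of the same families, went in both directions. Of 14 tested in 1.0 mM gels, 1 was called higher at 72 h (Irx4) and 7 lower (Sox14, Pax3, Pax8, Foxd1, Foxd2, Foxd3 and Nr2f2). In 1.5 mM gels none was called higher and 2 lower (Sox14 and Foxd3). Foxd4 was higher after early embedding, and its relative Foxd3, a neural crest and pluripotency factor, had log2 fold changes of -1.84 (SE 0.400) and -1.99 (SE 0.401). Nr2f2 was called lower in 1.0 mM gels, as was Nr2f1. Irx4 had a log2 fold change of 2.40 (SE 0.448) in 1.0 mM gels and 0.96 (SE 0.293) in 1.5 mM gels, where it missed the fold threshold. Sox14 and Pax8 stayed near 1 CPM or below, with Sox14 averaging 0.194 CPM in early and 1.02 CPM in late libraries of the 1.0 mM gel.

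Of 16 neural plate and pan-neural progenitor genes, 13 were tested in each gel, 1 was called in 1.0 mM gels (Fabp7, a fatty acid binding protein of radial glia, 1.36 (SE 0.245)) and none in 1.5 mM gels. Among dorsal spinal cord and roof plate genes, 5 of 13 were tested. In 1.0 mM gels Msx1 (1.54 (SE 0.357)), Msx2 (2.59 (SE 0.463)) and Bmp6 (1.24 (SE 0.341)) were called higher at 72 h and Pax3 (-1.43 (SE 0.173)) lower. In 1.5 mM gels none of the 5 was called, and Msx1 stood at -0.05 (SE 0.318). Msx1 and Msx2, targets of BMP signalling, are also expressed in mesoderm, and Pax3 is also a factor of somites.

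Of 12 intermediate and ventral cord genes, Shh, the ventral signal of notochord and floor plate, was called higher at 72 h in both gels, at 1.37 (SE 0.129) and 1.46 (SE 0.193), and so was Nkx2-2, at 1.73 (SE 0.272) and 2.56 (SE 0.383). These were the 2 called higher of 7 tested in 1.0 mM gels and of 5 tested in 1.5 mM gels. Olig2 was called lower in 1.0 mM gels, from a mean of 0.704 CPM at 96 h to 0.0139 CPM at 72 h, which is under 3 counts per library, so no fold is given.

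Proneural and early neuron genes gave 3 called higher and 1 lower of 10 tested in 1.0 mM gels, and 2 higher of 9 in 1.5 mM gels. Lhx1, a LIM homeodomain factor of interneurons that is also a gene of the organizer and kidney, had 1.62 (SE 0.149) and 1.305 (SE 0.143). Isl1 (1.45 (SE 0.230)) was called in 1.0 mM gels and is a gene of both motor neurons and heart progenitors. The neuronal gene Stmn2 had 0.98 (SE 0.174) and 1.02 (SE 0.204) and passed the fold threshold in 1.5 mM gels. The gene called lower was Neurod1, at means of 0.207 CPM at 72 h and 0.650 CPM at 96 h. Of forebrain and midbrain genes, 2 of 8 tested were called higher in 1.0 mM gels and 3 of 9 in 1.5 mM gels. They were led by Six3 (2.00 (SE 0.267) and 2.58 (SE 0.354)) and Hesx1 (2.13 (SE 0.486) and 2.19 (SE 0.355)), both factors of the anterior neural plate. Emx2 was called in 1.5 mM gels. Hesx1 was low, averaging 0.911 CPM in early and 0.207 CPM in late libraries of the 1.0 mM gel. In 1.5 mM gels it averaged 1.39 and 0.298 CPM. Over these 5 neural lists and the relatives, no gene was called between gel concentrations.

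**Figure D5:**
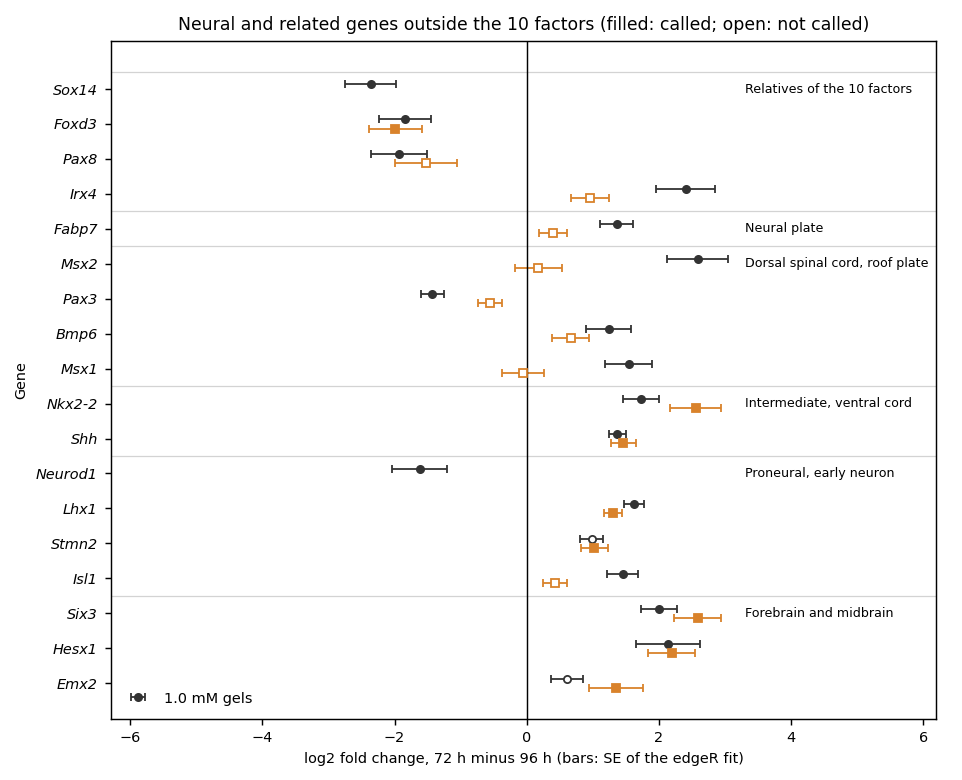
log2 fold change between embedding at 72 h and at 96 h (points; bars, SE of the edgeR fit) in both gels (1.0 mM, 1.5 mM) for up to 4 genes of each list called in at least 1 gel, filled where called. Comparisons with a group mean under 3 counts, such as Olig2, are not drawn. Six3, Hesx1, Shh, Nkx2-2 and Lhx1 are filled on the right for both gels, and Msx1, Msx2, Pax3 and Isl1 are filled for 1.0 mM gels alone.

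Markers of other cell types moved with embedding time as well, and their part in the values of the 10 members was not tested. Of 11 somite and presomitic mesoderm markers, 10 were tested. At 72 h, 5 were called lower in 1.0 mM gels and 3 in 1.5 mM gels, the direction of Sox2 and Nr2f1 in both gels and of Sox1 in 1.0 mM gels. The summed level of all 11 was 335 to 593 CPM in early and 967 to 1116 CPM in late libraries of the 1.0 mM gel. In 1.5 mM gels it was 431 to 659 and 812 to 1047 CPM, and Msgn1 never reached 1 CPM. Meox2, a somite factor, had -3.79 (SE 0.277) and -3.48 (SE 0.281).

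Of 9 cardiac mesoderm markers, all were called higher at 72 h in 1.0 mM gels and 3 in 1.5 mM gels. This was the direction of Irx4 and of every member but Sox1, Sox2 and Nr2f1, though Sox3 had only 0.15 (SE 0.168) and 0.20 (SE 0.151). The median log2 fold change of these markers was 2.57 in 1.0 mM gels and 1.24 in 1.5 mM gels. Their sum was 483 to 911 against 63.8 to 189 CPM in 1.0 mM gels and 375 to 726 against 183 to 317 CPM in 1.5 mM gels. Gata4, for example, had 2.57 (SE 0.331) and 1.36 (SE 0.249).

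Lower values at 72 h, as in Sox1 (in 1.0 mM gels), Nr2f1 and Sox2, which is also a pluripotency factor, were also seen among pluripotent and germ-cell-like markers. Of these 10 markers, 7 were called lower at 72 h in 1.0 mM gels and 6 in 1.5 mM gels. Their sum was 108 to 129.6 against 145 to 193 CPM and 100.3 to 104 against 131 to 156 CPM, and the pluripotency genes Dppa5a and Nanog had -2.71 (SE 0.160) and -1.96 (SE 0.180) in 1.0 mM gels and -2.48 (SE 0.139) and -1.504 (SE 0.243) in 1.5 mM gels. Prdm1, which is on that list and is also expressed in mesendoderm, was called higher in 1.0 mM gels.

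Of 12 neuromesodermal and caudal epiblast genes, T was called higher at 72 h in both gels, at 1.17 (SE 0.141) and 1.42 (SE 0.0974). This was the direction of every member but Sox1, Sox2 and Nr2f1, with the small values of Sox3 given above. Nkx1-2 and Cdx1 were called lower in 1.0 mM gels, and Cdx1 never reached 1 CPM. The median log2 fold change of the list was 0.034 in 1.0 mM gels and -0.19 in 1.5 mM gels. Its sum was 426 to 509 against 289.8 to 334 CPM and 377 to 431 against 266 to 277 CPM. Within that sum, T alone averaged 251 against 112 CPM and 203 against 75.6 CPM. No endothelium marker of 6 was called, with sums of 208 to 316 against 220.5 to 261 CPM and 224 to 342 against 276 to 316 CPM. Of 8 endoderm markers, Krt8 alone was called, in 1.0 mM gels (1.21 (SE 0.106)), and the sums were 525 to 608 against 367 to 414 CPM and 389 to 497 against 294 to 392 CPM. Between gel concentrations no gene of these 6 lists was called.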

How the data were processed

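Gene expression was measured by bulk RNA sequencing of poly-A-selected, stranded libraries, 3 for each of the 4 combinations of embedding time and gel concentration. The authors trimmed reads (cutadapt 4.4), aligned them to mm10 with STAR 2.7.10b, and deposited raw counts per Ensembl gene without normalization; the table is named for HTSeq while the methods name STAR, and the strand setting of the counts is not given in the sources used here. The authors also deposited FPKM values from Cufflinks 2.2.1.3. The authors' deposited table of DESeq2 comparisons (log2 fold changes and adjusted p-values) was not used. Versions are from the submitters' processing notes.

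Counts were analysed in R 4.3.3 with edgeR 4.0.16: 36 mitochondrial genes were left out as in the study's methods, genes were filtered with filterByExpr (minimum count 10, minimum total 15), normalized by TMM and fitted with glmQLFit and glmQLFTest on the libraries of the groups compared, or on all 12 for the interaction and for gel concentration across both embedding times. Calls needed a Benjamini-Hochberg adjusted p below 0.05 over all genes and an absolute log2 fold change above 1. CPM used TMM-scaled totals, and log2 CPM a prior count of 2. The fits were tested on simulated data. Alternatives were DESeq2 1.42.0, limma-voom (limma 3.58.1), RLE normalization, no low-count filter or 1 CPM in 3 libraries, each library left out in turn, a block for the replicate number, no fold-change threshold, 1 fit of all 12 libraries, and FPKM in place of CPM for levels. The SE of a log2 fold change is its absolute value divided by the square root of the quasi-likelihood F of that fit. It therefore draws on a dispersion estimated with all genes fitted, and the ±2 SE intervals are built on it. Each group held 3 replicates, at totals of 23011791 to 27609422 counts.

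The members and gene lists were chosen with earlier results of these data known. The genes named are the 10 members, from each list up to 4 genes called in at least 1 comparison of embedding times with the largest mean absolute log2 fold change, and for each member the 3 most correlated genes; other genes named in counts of calls were named after their values were seen. No libraries of a group were identical, and same-numbered replicates were not stated to share a batch. Exons, strands and overlaps are from GENCODE vM21.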

Additional observations from a re-analysis of the deposited data

How the results depend on the processing

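Between embedding times, 4 members were called for the 1.0 mM gel and 3 for the 1.5 mM gel under every alternative except no fold-change threshold. That setting gave 7 and 6 members and 1457 and 3033 genes over all. No direction of a member changed under any alternative. The members were chosen with these differences in view, so this describes the settings and is no support for the differences. Leaving out single libraries gave 429 to 703 and 298 to 636 genes, against 678 and 498 with all libraries, and the lowest counts came without replicate 3 of 96 h of each gel. Between gels no member was called under any alternative. Where Irx5, Irx3, Lmx1a or, for the interaction, Pax6 had an adjusted p below 0.05, the value was under the fold-change threshold. The replicate number as a block moved counts over all genes between gels to 16 (72 h), 51 (96 h), 10 (both embedding times) and 4 (interaction). It changed no call of a member, though the edgeR adjusted p of Irx5 fell to 0.0252 at 96 h and 0.0288 for both embedding times. Deviations of same-numbered libraries correlated at 0.04 to 0.30, all positive, and those of differently numbered libraries at -0.24 to 0.11. Same-numbered libraries thus tended to deviate together, though not every library correlated best with its own number. A shared batch was not stated, so the main fit has no block and the blocked fit is given as an alternative. With no low-count filter the counts over all genes, in the order given for the block, were 56, 65, 45 and 112, and with DESeq2 2, 10, 8 and 0. For both embedding times together, where 1 gene was called, limma-voom and the stricter filter gave 0 and no fold-change threshold 8. Leaving out single libraries gave 0 to 12 genes at 96 h (12 without replicate 3 and 2 without replicate 1 of the 1.5 mM gel) and 0 to 22 for both embedding times: 22 without replicate 1 of 72 h in the 1.5 mM gel, 2 without replicate 2 or 3 of 72 h or replicate 3 of 96 h in the 1.0 mM gel, 1 without replicate 1 of 96 h in the 1.5 mM gel, and 0 without any other library. The cause was not tested. Of 10 members, values between gels changed sign in 9 of 140 values at 72 h, 5 of 140 at 96 h, 8 of 190 for both embedding times and 26 of 190 for the interaction, none of them called. Among those printed, the range when single libraries were left out was -0.14 to 0.62 at 72 h, -0.0072 to 0.30 at 96 h and -0.0030 to 0.38 for both times for Nr2f1. For the interaction it was -0.29 to 0.47 for Nr2f1, -0.14 to 0.13 for Foxd4 and -0.065 to 0.42 for Lmx1a; Nr2f1 had 0.065 with limma-voom and 0.022 with the replicate block, and Foxd4 -7.4e-05 with no low-count filter. The median ratio of Irx3 to Sox1 was higher in FPKM, at 50.0, than in CPM. The lowest counts in a library were 39 for Sox1 and 35 for Lmx1a.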
